A study of Mus musculus with 2 samples.

Results

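Monocytes carrying Ly6c2 or Chil3 were picked out among the CD45-sorted immune cells of subcutaneous B16F10 tumours, and they numbered 782 of the 14899 cells in the data, or 7.45% of the 10491 cells that had a single sample tag and passed the cell filters. A cell counted as a monocyte when it held at least 10 molecules of Lyz2, the lysozyme gene of myeloid cells, and at least 3 of Ly6c2 and Chil3 together. It also had fewer than 10 molecules of the complement genes C1qa, C1qb and C1qc together, fewer than 10 of Arg1, none of Cd209a or Cxcr2, and at most 1 of the T cell genes Cd3e, Cd3d and Trac. These measured values chose the cells, so the levels of those genes are given as a description only. The 782 monocytes comprised 214 cells of tag 8, 269 of tag 9 and 299 of tag 10, and values given in threes follow that order of tags. They made up 6.41%, 7.72% and 8.15% of the kept cells, with exact 95% Clopper-Pearson intervals of 5.61 to 7.30, 6.85 to 8.65 and 7.28 to 9.08. All 3 intervals overlapped, those of tags 8 and 10 only just, and they cover counting error only.

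Ly6C-high monocytes are short-lived cells of the bone marrow that enter blood and, in mice, are drawn into inflamed tissue and tumours through the chemokine receptor CCR2. Within a tumour they can take on the features of macrophages or of antigen-presenting cells, and they answer interferons with broad sets of induced genes. Ly6c2 encodes the surface antigen that gives these monocytes their name, and Chil3 encodes a secreted chitinase-like protein of monocytes and of some macrophages.

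B16F10 is a transplantable, pigmented melanoma line of C57BL/6 mice. The tumours grew under the skin of the flank from wildtype cells, Tyr knockout cells or Oca2 knockout cells, in 3 groups of 3 mice, all female C57BL/6, and CD45+ cells were sorted from them. Only the tumour cells differed in genotype, and no age, day of collection, clone or further agent is given. Each group was marked with a sample tag, and all cells were pooled into 1 capture. Nothing in the sources used here says which genotype a tag stands for or that single mice had tags of their own, so each tag is treated as 1 sample of unnamed genotype and no genotype was compared with another. Both libraries come from the cells of that capture, and 0 cell indices repeat among the counted cells and 0 cells lack a tag call.

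The monocytes held 1432286, 1730506 and 1934678 molecules in tags 8, 9 and 10, with medians of 6464, 5983 and 6172 molecules per cell, against a median of 3489 over all kept cells. Levels are given as CPM, which is the count of a gene over all molecules of the class in that tag, scaled to 1000000 molecules. Comparisons take CPM ratios tag by tag on the log2 scale, written as the median over the 3 tags with the lowest and highest tag in parentheses. A gene is called higher or lower when each of the 3 tags showed a ratio of 2-fold or more, all in 1 direction. With 1 tag for each unnamed genotype, no p-value was computed.

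Ly6c2 was present in 751 of the 782 monocytes (96.0%) and Chil3 in 540 (69.1%), while 509 cells (65.1%) held both. A further 242 cells (30.9%) had Ly6c2 without Chil3, and only 31 (3.96%) had Chil3 without Ly6c2. The median cell held 8 Ly6c2 and 2 Chil3 molecules, and the largest counts were 156 and 82. Ly6c2 is the gene on chromosome 15 from 75108158 to 75111970 and Chil3 that on chromosome 3 from 106147554 to 106167564, both protein coding and on the minus strand of GRCm38 in GENCODE vM21. Both have a near-identical neighbour in the genome, since the aligned transcripts of Ly6c2 and Ly6c1 were identical at 97.6% of bases and those of Chil3 and Chil4 at 94.4%. Reads of such pairs could be split between the copies, which makes single values uncertain, but the monocytes held 48 Ly6c1 molecules beside 12824 of Ly6c2, and 2 of Chil4 beside 4101 of Chil3.

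At the limits of the selection, exactly 3 molecules of Ly6c2 and Chil3 were found in 69 monocytes, and 81 cells with 2 molecules met every other limit. Plac8 stood at 1025 CPM in those 69 cells and at 1353 in those 81, and Apoe, a macrophage lipid carrier, at 1030 and 939. At the complement limit, 15 monocytes held 9 C1q molecules and 6 cells just outside held 10. At the Lyz2 limit, 13 monocytes held 10 molecules and 10 cells outside held 9, and at the Arg1 limit 6 monocytes held 9 molecules and 4 cells outside held 10. Plac8 stood at 1404 CPM in those 6 cells and at 63.8 in those 4, and at the complement limit at 2255 inside and 2703 outside. A single Cd209a or Cxcr2 molecule kept out 16 and 12 cells, and 7 cells with 2 T cell molecules were kept out beside 56 monocytes with 1. No C1q molecule was found in 538 monocytes (68.8%), no Arg1 molecule in 648 (82.9%), and neither in 455 (58.2%).

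The label was checked against monocyte genes that the selection did not use. Plac8, a gene abundant in blood monocytes, had 2108, 3059.8 and 3345 CPM and was found in 90.8% of the monocytes. Ccr2, the receptor that brings monocytes out of the marrow, had 959, 741 and 844 CPM and was found in 85.4%. Ms4a4c, a membrane protein gene of the MS4A family, had 657, 834 and 953 CPM and was found in 86.4%, and Ifitm6, an interferon-induced membrane protein gene of myeloid cells, had 267, 224 and 245 CPM and was found in 50.6%. These protein-coding genes lie on chromosomes 5 (Plac8, 100553725 to 100572245), 9 (Ccr2, 124101950 to 124113557), 19 (Ms4a4c, 11404770 to 11427246) and 7 (Ifitm6, 141015699 to 141017924). All 4 were present in every tag, with Plac8 and Ms4a4c lowest in tag 8 and Ccr2 and Ifitm6 highest there. With each cell thinned to 1000 molecules, Ccr2 was found in 49.0% of 781 monocytes and in 0 of 175 B cells, a class that should lack it, which allows up to 2.09% of cells with a molecule at that depth (exact 95% limit). Before thinning it was found in 4.55% of 176 B cells, at 18.1 CPM, and the median depths were 6229 molecules in monocytes and 2366 in B cells. Plac8 was found in 40.0% of thinned B cells against 76.1% of thinned monocytes.

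**Figure D1:**
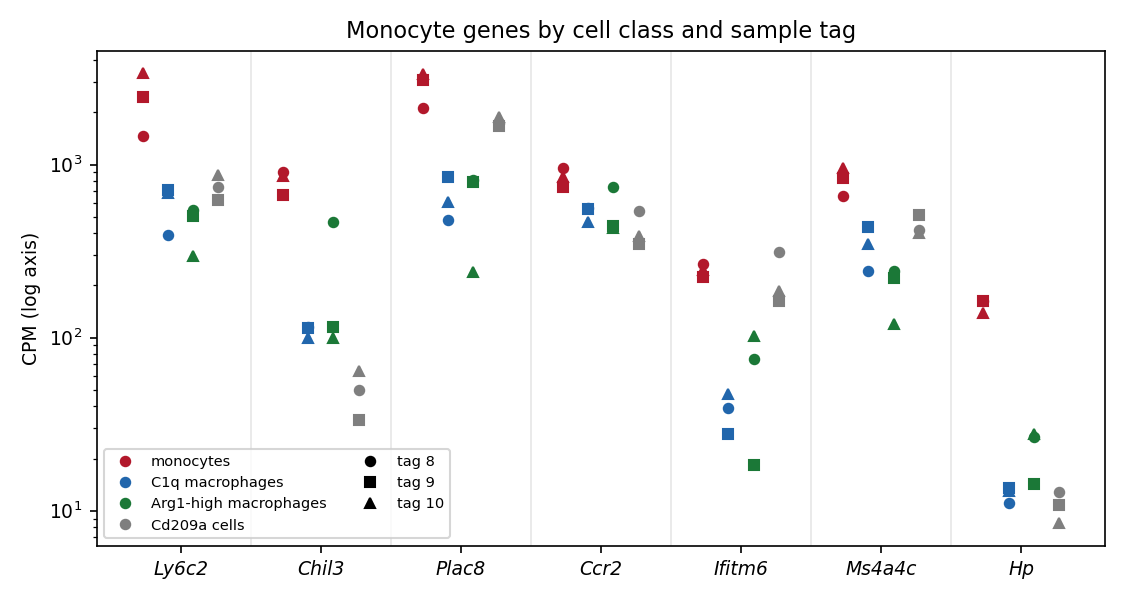
Levels of 7 monocyte genes in CPM (log axis) in monocytes and in the 3 comparison classes, with 1 point for each sample tag (circle, square and triangle for tags 8, 9 and 10). Ly6c2 and Chil3 took part in choosing the monocytes. Hp lies between 139 and 162 CPM in monocytes and below 30 in every other class, while Ifitm6 in Cd209a cells lies near its monocyte levels.

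2 genes common in blood monocytes were at background. S100a8 and S100a9, which encode the calprotectin subunits of neutrophils and young monocytes, stood at 12 and 11.6 CPM. After thinning they were found in 1.54% and 1.41% of monocytes, in 2.86% and 1.71% of B cells and in 70.5% and 72.1% of Cxcr2 cells, the neutrophil gate. Granule genes of marrow progenitors were absent or nearly so, with 0 molecules of Elane, Ctsg, Camp and Ngp, 4 of Mpo and 4 of Ltf in all. Prtn3, the proteinase gene of the same granules, stood at 8.38, 10.4 and 7.75 CPM, in 4.35% of the cells. Cx3cr1, a receptor typical of patrolling monocytes, had 39.1, 31.2 and 32.6 CPM, in 10.6% of the cells. A count of 0 allows up to 2.58, 2.13 and 1.91 CPM in the 3 tags (exact 95% Poisson limits).

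Macrophage markers were widespread in the monocytes, found in 80.9% of them, and neutrophil markers were found in 47.4%, while erythroid, fibroblast and NK cell markers were each high in 1 tag through few cells. The summed level of 4 erythroid markers was 27.2, 733 and 49.1 CPM, and 1 cell of tag 9 held 1196 of that tag's 1268 molecules. The fibroblast sum was 168 CPM in tag 8 and 35.2 and 17.6 in tags 9 and 10, with 202 of 241 molecules of tag 8 in 1 cell. The NK cell sum was 58.6, 4.62 and 7.24 CPM, with 77 of 84 molecules of tag 8 in 3 cells. The 8 macrophage markers summed to 1589, 949 and 1343 CPM, against 9509 in C1q macrophages, and 437 monocytes (55.9%) held at least 3 molecules of them. C1qa, C1qb and C1qc are among the 8, at 1140, 2238 and 1554 CPM in C1q macrophages. Both selections used these genes, so much of that gap was set by the choice of cells. The 8 neutrophil markers summed to 142, 138 and 155 CPM, and Cxcr2 is at 0 by the selection. Doublets were not called. Among the cells labelled as multiplets by tag, 80 of 1271 (6.29%, interval 5.02 to 7.77) met the same limits, and an estimated 725 wells of the whole capture held a pair of same-tag cells (5.54% of single-tag cells), so some monocytes may be pairs.

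The monocytes made large amounts of inflammatory chemokine RNA. Cxcl2, a chemokine that attracts neutrophils, was their most abundant transcript with 73095 molecules, at 17688, 13316 and 12776 CPM, and was found in 98.5% of the cells. Il1b, the interleukin 1 beta gene, had 6784, 6659.9 and 3336 CPM, and Ccl4, a chemokine for T cells and monocytes, had 4119, 3405 and 2051 CPM. Both were lowest in tag 10, with Il1b in tags 8 and 9 about level. Ccl2, the ligand of CCR2 itself, had 3402, 1441 and 1842 CPM and was found in 80.3% of the cells, with tag 8 well above the others. Ccl7, another CCR2 ligand, had 1741, 687 and 738 CPM, again highest in tag 8. Ptgs2, the inducible cyclooxygenase gene, had 2680.3, 2672 and 1668 CPM, and Tnf, the tumour necrosis factor gene, 987, 1556 and 1575 CPM. Tnf was lowest in tag 8, unlike Il1b, Ccl4 and Ccl2.

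Several immune regulators were present at lower levels. For Il10, a cytokine that damps inflammation, the level was 723, 398 and 391 CPM, with molecules in 39.9% of the cells. Cd274, which encodes the checkpoint ligand PD-L1, had 228, 504 and 312 CPM and was found in 60.4%. Vegfa, a growth factor of blood vessels, had 360.3, 309 and 475 CPM. Tag 9 was highest for Cd274 and lowest for Vegfa. Nos2, the inducible nitric oxide synthase, had 36 molecules in all, and Ido1, a tryptophan-degrading enzyme, had 0. The 13 dissociation genes ranged from Dnajb1, a heat shock cochaperone, at 58.6, 78.0 and 75.5 CPM to Zfp36, an RNA-destabilising protein, at 2671, 2794 and 4265, with the immediate early gene Fos at 1079, 989 and 2042. None of the 13 was called against C1q or Arg1-high macrophages, where 3.55% and 3.87% of all genes tested were called, so 0 calls say little. Their median log2 ratios were 0.08 and 0.71, against -0.11 and 0.11 over all genes. Against Cd209a cells 1 of the 13, Ier3, was higher. The part of tissue handling in these levels was not tested.

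The tags differed in interferon gamma response genes, inflammatory chemokines and MHC class II. The sum of 9 interferon gamma response genes (Gbp2, Gbp3, Gbp4, Gbp5, Gbp7, Igtp, Iigp1, Irgm1 and Cxcl9) was 0 in 75.1% of thinned monocytes of tag 8, 37.5% of tag 9 and 45.8% of tag 10. Gbp2, a guanylate-binding protein that acts against intracellular pathogens, had 197, 866 and 481 CPM, with exact 95% Poisson intervals of 175 to 221, 822 to 911 and 450.3 to 513. Cxcl9, an interferon gamma-induced chemokine for T cells, had 85.9, 889 and 674 CPM, with intervals of 71.4 to 102, 845 to 934 and 638 to 712. In both genes the 3 intervals were apart, and tag 8 was lowest. These intervals cover counting error only and take molecules as independent, so they leave out the spread between cells. The tenth of thinned cells with the largest sums of the 9 genes held 74.8%, 50.5% and 53.5% of those molecules. The median sum of 4 class II genes (H2-Aa, H2-Ab1, H2-Eb1 and Cd74) in thinned cells was 4, 9 and 7 molecules. The median sum of 5 inflammatory genes (Cxcl2, Cxcl1, Il1b, Ccl3 and Ccl4) was 30, 22 and 19. It was highest in tag 8, where the class II sum was lowest, but both sums fell from tag 9 to tag 10. Each tag is 1 sample, so genotype and mouse cannot be told apart here, and these differences have no replicate.

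Monocytes were first set against the C1q macrophages, 1071 cells (318, 326 and 427) with at least 10 molecules of Lyz2 and of C1q, the same limits on Cd209a, Cxcr2 and T cell genes, and none on Arg1, Ly6c2 or Chil3. Their median was 10620 molecules per cell. Both classes were chosen by measured genes, so the contrast describes what came with that choice, and the genes of either selection were not called. Of 10408 genes with at least 30 molecules, 84 were higher in monocytes (0.807%) and 286 lower (2.75%), or 3.55% in either direction, and the median gene lay at -0.11. Genes of circulating monocytes were among those higher. Hp, which encodes the haemoglobin scavenger haptoglobin, had 162, 162 and 139 CPM in monocytes and 11, 13.5 and 13 in macrophages, a ratio of 3.58 (3.41 to 3.88). Its lowest monocyte value lay above its highest macrophage value.

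Of 22 monocyte lineage genes, 3 were higher, among them Hp and Vcan, and 0 lower, with a median of 0.29. Vcan, the matrix proteoglycan versican of classical monocytes, stood at 1.53 (1.53 to 2.08). Csf1r, the receptor for the growth factor of monocytes and macrophages, had 584, 543 and 607 CPM against 573, 527 and 598, a ratio of 0.03 (0.02 to 0.04), so its level was close in the 2 classes in each tag. Of the markers outside the selection, Ifitm6 stood at 2.77 (2.39 to 3.02) and Plac8 at 2.14 (1.85 to 2.47). Ccr2, at 0.77 (0.43 to 0.85), and Ms4a4c, at 1.44 (0.94 to 1.46), were under 2-fold in at least 1 tag. Other genes with large ratios were Slpi, a secreted inhibitor of leukocyte proteases, at 2.33 (1.64 to 2.47), and Napsa, an aspartic protease, at 2.23 (2.08 to 2.52). Gsr, the enzyme that regenerates glutathione, stood at 1.64 (1.44 to 2.28).

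Genes of patrolling, non-classical monocytes were higher in these cells too. Of 12 such genes 6 were higher and 0 lower, with a median of 1.23. Itgal, the integrin chain of LFA-1, had 106, 169.9 and 159 CPM against 29.9, 51.7 and 48.6, a ratio of 1.72 (1.71 to 1.83). Adgre4, an adhesion receptor of myeloid cells, stood at 2.26 (2.06 to 2.36), Ear2, an eosinophil-type ribonuclease gene, at 1.61 (1.54 to 2.44) and Pglyrp1, a peptidoglycan-binding protein, at 2.16 (1.59 to 2.68). Treml4, a receptor of myeloid cells for dying cells, stood at 1.38 (1.09 to 2.92). Ace, the angiotensin-converting enzyme, had 143 against 23 molecules, unscaled counts of classes with 5097470 and 12842517 molecules. Levels of the last 5 genes were low, at most 31.8 CPM in monocytes. Nr4a1, a transcription factor needed by non-classical monocytes, stood at 0.05 (-0.03 to 0.24) and was not called. With cells thinned to 1000 molecules, 6 of the 12 genes still had enough molecules to compare, and 3 of them were higher.

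Macrophage genes were lower in the monocytes. Of 26 macrophage differentiation genes 14 were lower and 0 higher, with a median of -1.36. Folr2, a folate receptor of tissue macrophages, had 25.8, 9.25 and 8.79 CPM in monocytes against 196, 120.3 and 234, a ratio of -3.70 (-4.73 to -2.92). Pf4, a platelet-type chemokine also made by macrophages, had 253, 75.1 and 75.5 against 1489, 958 and 1713 CPM, a ratio of -3.67 (-4.50 to -2.55). Apoe had 917, 477 and 865 against 2822, 2275 and 4405 CPM, a ratio of -2.25 (-2.35 to -1.62), and was thus still abundant in the monocytes. Also lower were Trem2, a lipid receptor, at -2.29 (-2.44 to -1.62) and Ms4a7 at -2.23 (-2.28 to -1.54). Outside that list, the scavenger receptor gene Stab1 stood at -2.56 (-2.83 to -1.68), the chemokine gene Ccl8 at -3.75 (-4.43 to -1.96) and Hmox1, the haem-degrading oxygenase, at -1.99 (-2.76 to -1.34). Without tag 8, 19 of the 26 genes were lower, with fewer tags that must agree, and lower calls over all genes rose as well. Of 12 proliferation genes 4 were lower, among them Tyms, a DNA synthesis enzyme, at -1.33 (-3.28 to -1.24), and thinned cells gave 0 of the 4 that could be compared.

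Within the monocytes, macrophage genes and C1q moved together only in part. In the 538 monocytes without a C1q molecule, Apoe had 938, 454 and 804 CPM, in the 140 with 1 or 2 it had 699, 429 and 1257, and in the 104 with 3 to 9 it had 1115, 672 and 743. Ms4a7 had 225, 86.8 and 141 CPM in the first group, 223, 139.6 and 174 in the second and 314, 217 and 208 in the last. Hp had 157, 204 and 163 CPM in the first, 215, 100.9 and 127 in the second and 112, 57.5 and 35.2 in the last. Between the first and the last group Ms4a7 was higher and Hp lower in every tag, but in tag 8 the middle group had the highest Hp and the lowest Ms4a7, and Apoe did not keep 1 direction. The C1q count used in the selection orders these cells, so the pattern is a description.

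Arg1-high macrophages formed the second comparison, 275 cells (118, 58 and 99) with at least 10 molecules of Lyz2 and of Arg1, the arginine-degrading enzyme, fewer than 10 of C1q and no limit on Ly6c2 or Chil3. Their median was 8069 molecules per cell, and they held 2295773 molecules in all against 5097470 in the monocytes. Of 8714 genes tested 166 were higher in the monocytes (1.9%) and 171 lower (1.96%), or 3.87% in either direction, and the median gene lay at 0.11. Genes of antigen presentation through MHC class II were higher, 8 of 11, with 0 lower and a median of 1.61. Against C1q macrophages 0 of the 11 were higher and 0 lower, with a median of 0.23. H2-Aa, a class II chain, had 2494, 3817 and 3809.9 CPM in monocytes against 958, 1250.2 and 653, a ratio of 1.61 (1.38 to 2.54). Cd74, the invariant chain, had 3823, 5634 and 5535 against 1738, 2502 and 1102 CPM, a ratio of 1.17 (1.14 to 2.33). H2-DMb1, which helps load peptides onto class II, stood at 2.04 (1.85 to 2.40), and Ciita, the class II transactivator, had 190 against 12 molecules. In all 4 genes the lowest monocyte tag lay above the highest tag of the Arg1-high cells.

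Interferon response genes were higher in the monocytes as well. Of 18 interferon gamma response genes 8 were higher and 0 lower, with a median of 1.68. Of 32 type I genes 8 were higher and 0 lower, with a median of 1.06. Against C1q macrophages 1 of 18 and 1 of 32 were higher and 0 lower, with medians of 0.54 and 0.54. Cxcl9 had 85.9, 889 and 674 CPM against 5.34, 26.3 and 71.5, a ratio of 4.01 (3.24 to 5.08). Gbp2 had 197, 866 and 481 against 56.6, 186 and 21.9 CPM, a ratio of 2.22 (1.80 to 4.45). Iigp1 and Gbp4, interferon-induced GTPases, had 391 against 11 and 322 against 14 molecules, unscaled counts of classes with 5097470 and 2295773 molecules. Zbp1, a nucleic acid sensor, stood at 1.33 (1.11 to 2.60). Without tag 8, 15 of 18 interferon gamma genes and 19 of 32 type I genes were higher, with fewer tags that must agree. Higher calls over all genes also rose without tag 8, so the rise was not particular to these lists. Thinned cells gave 5 higher class II genes of 9 and 7 interferon gamma genes of 16, and 4 type I genes of 28. Over all genes, 90 were higher in thinned cells.

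**Figure D2:**
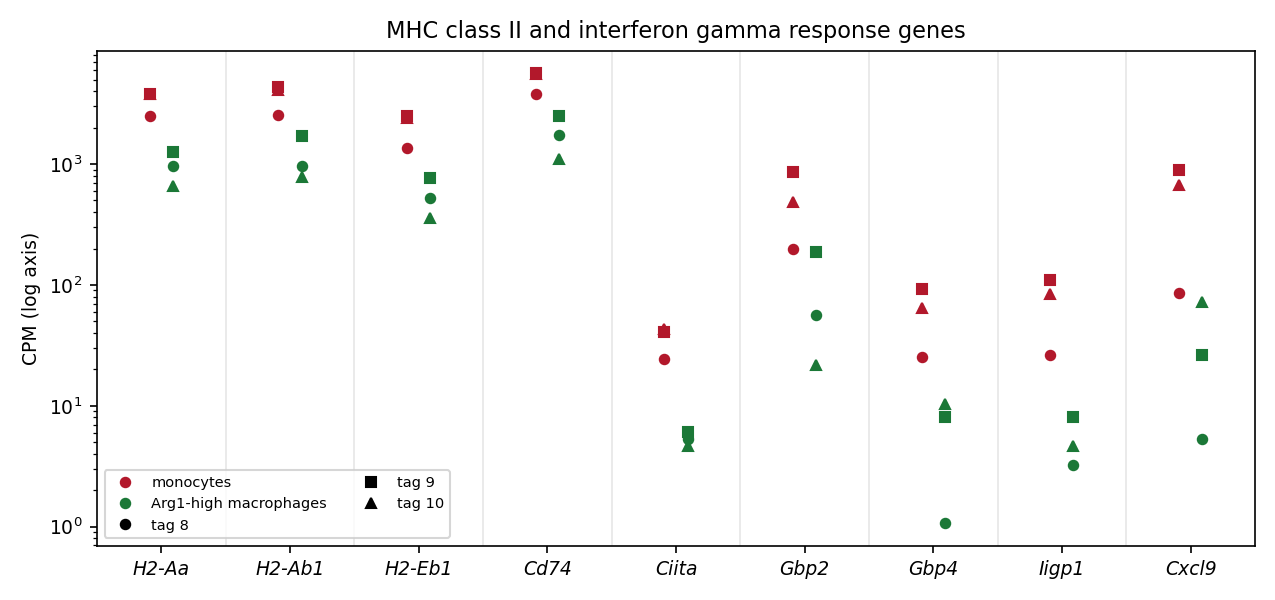
Levels of MHC class II genes and interferon gamma response genes in CPM (log axis) in monocytes and Arg1-high macrophages, 1 point for each sample tag. Monocyte points lie above those of Arg1-high macrophages of the same tag for all 9 genes, and the tag 8 circles are the lowest monocyte points. Ciita, Gbp4 and Iigp1 rest on 12, 14 and 11 molecules in the Arg1-high cells.

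Genes of glycolysis and hypoxia were lower in the monocytes, 10 of 18, with 0 higher and a median of -1.20. Gapdh, a glycolytic enzyme, had 1396, 1330.2 and 1314 CPM against 2902, 2989 and 3218, a ratio of -1.17 (-1.29 to -1.06), and Pgk1, the next enzyme of the pathway, stood at -1.42 (-1.51 to -1.40). Bnip3, a hypoxia-induced mitophagy receptor, had 90.1, 76.9 and 60.0 against 408, 492 and 574 CPM, a ratio of -2.68 (-3.26 to -2.18). Egln3, an oxygen-sensing hydroxylase, stood at -3.26 (-5.08 to -2.06) and Ero1l, an oxidase of protein folding, at -2.59 (-3.12 to -1.67). Ldha, lactate dehydrogenase, stood at -0.96 (-0.97 to -0.90) and was just under 2-fold in every tag. Thinned cells gave 9 lower genes of 17.

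Of 22 monocyte lineage genes 3 were higher than in Arg1-high macrophages, among them Hp and Lyz1, and 2 lower, F13a1 and Fn1, with a median of 0.27. Matrix and coagulation genes, a list that also holds those 2, were lower, 9 of 20 with 0 higher and a median of -0.96. Fn1, fibronectin, had 583, 308 and 404 CPM in the monocytes against 2399, 1131 and 3058, a ratio of -2.04 (-2.92 to -1.88). Mmp12, the macrophage elastase, stood at -3.90 (-3.92 to -2.60) and F13a1, the clotting factor XIII subunit, at -1.17 (-1.54 to -1.09), a call that ended in thinned cells and 2 other settings. With thinning 4 of 16 genes were lower. Spp1, which encodes osteopontin, had 499.9, 321 and 402 against 2698, 2778 and 3995 CPM, a ratio of -3.11 (-3.31 to -2.43). Of 16 chemokine genes 4 were lower, among them Cxcl1, a chemokine for neutrophils, at -1.55 (-2.56 to -1.37) and Cxcl3 at -2.84 (-4.04 to -2.67), and 1, Cxcl9, was higher. Ppbp, the precursor of platelet chemokines, stood at -5.0 (-7.05 to -3.62) and Pf4 at -4.60 (-5.49 to -3.04).

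Cd209a cells, the third comparison, were 358 cells with a molecule of the lectin gene Cd209a (126, 116 and 116), fewer than 10 of C1q and of Arg1, and no Cxcr2. Cd209a is known from dendritic cells and from monocytes that become them. The class had a median of 6126 molecules per cell, close to the monocytes, but no Lyz2 or Ly6c2 was required of them. Of 9032 genes 443 were higher in monocytes (4.9%) and 463 lower (5.13%), or 10% in either direction, so 48.9% of the calls were higher, and the median gene lay at -0.15. With TMM scaling (a trimmed mean of ratios) 562 were higher and 376 lower, which is 59.9%, and the median gene lay at 0.04.

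Myeloid effector genes were higher in the monocytes than in Cd209a cells. Of 16 chemokine genes 12 were higher and 0 lower, with a median of 2.30. Ccl2 had 3402, 1441 and 1842 CPM in monocytes against 158, 105 and 508, a ratio of 3.78 (1.86 to 4.43), and Cxcl2 stood at 2.49 (2.44 to 2.77). Of 13 cytokine genes 8 were higher, with Il10 at 723, 398 and 391 against 48.7, 16.1 and 62.8 CPM, a ratio of 3.89 (2.64 to 4.63). Il1rn, the interleukin 1 receptor antagonist, stood at 2.36 (2.05 to 2.64) and Tnf at 2.05 (1.41 to 2.10). Il12b, a cytokine of dendritic cells, was lower, with 10 against 238 molecules, unscaled counts of classes with 5097470 and 2436175 molecules. Of 17 Fc and pattern receptor genes 14 were higher and 0 lower, with a median of 1.96, among them Msr1, a scavenger receptor, at 3.56 (3.56 to 4.51), Clec4e, a lectin for mycobacterial lipid, at 2.82 (2.76 to 2.93) and Tlr2, a receptor for bacterial lipoproteins, at 2.17 (1.54 to 2.51). Thinned cells gave 8 higher chemokine genes of 16, 5 cytokine genes of 10 and 12 receptor genes of 16. Against C1q macrophages 0 of 16 chemokine, 0 of 15 cytokine and 0 of 19 receptor genes were higher, and 1, 1 and 2 were lower.

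Lineage and macrophage genes were higher than in Cd209a cells as well. Of 22 monocyte lineage genes 13 were higher and 0 lower, with a median of 1.65, including Csf1r at 1.58 (1.5 to 2.20), Fcgr1, the high-affinity antibody receptor, at 2.11 (1.72 to 2.62) and Thbs1, the matrix protein thrombospondin 1, at 3.34 (2.75 to 3.70). Of 25 macrophage differentiation genes 19 were higher and 0 lower, with a median of 2.52. Adgre1, which encodes the F4/80 antigen, had 265, 187 and 237 CPM against 19.7, 13.4 and 23.0, a ratio of 3.75 (3.37 to 3.80). The monocytes thus held macrophage genes at a level below C1q macrophages and above Cd209a cells. Thinned cells gave 14 higher genes of 23. Plac8 and Ifitm6, called higher against both macrophage classes, stood here at 0.82 (0.28 to 0.88) and 0.41 (-0.23 to 0.47), and neither was called.

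Antigen presentation was lower in the monocytes than in Cd209a cells. Of 11 class II genes 6 were lower and 0 higher, with a median of -1.15. H2-Ab1 had 2561, 4296 and 4070.4 CPM against 10489, 11828 and 9376, a ratio of -1.46 (-2.03 to -1.20). H2-DMb2, a peptide-loading gene, had 23.0, 14.4 and 18.6 against 276, 433 and 305 CPM, a ratio of -4.03 (-4.91 to -3.58). Cd74 stood at -1.10 (-1.56 to -0.96) and was not called, and TMM scaling left 4 lower class II genes, without H2-Aa and H2-DMb1. Dendritic cell genes were far lower, with Ccr7, the receptor for homing to lymph nodes, at -4.95 (-5.80 to -4.44), Mgl2, a galactose lectin, at -5.75 (-6.91 to -3.32) and Ccl22, a chemokine of mature dendritic cells, at -4.85 (-6.64 to -2.61). Ifitm1, unlike its relative Ifitm6, stood at -3.85 (-3.93 to -3.49). The Cd209a class also held markers of other cells, since its 4 fibroblast markers summed to 1205 CPM and its 4 migratory dendritic cell markers to 1084, against 28.6 to 59.5 CPM of the second in the monocyte tags. The part of those markers in the ratios was not tested.

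**Figure D3:**
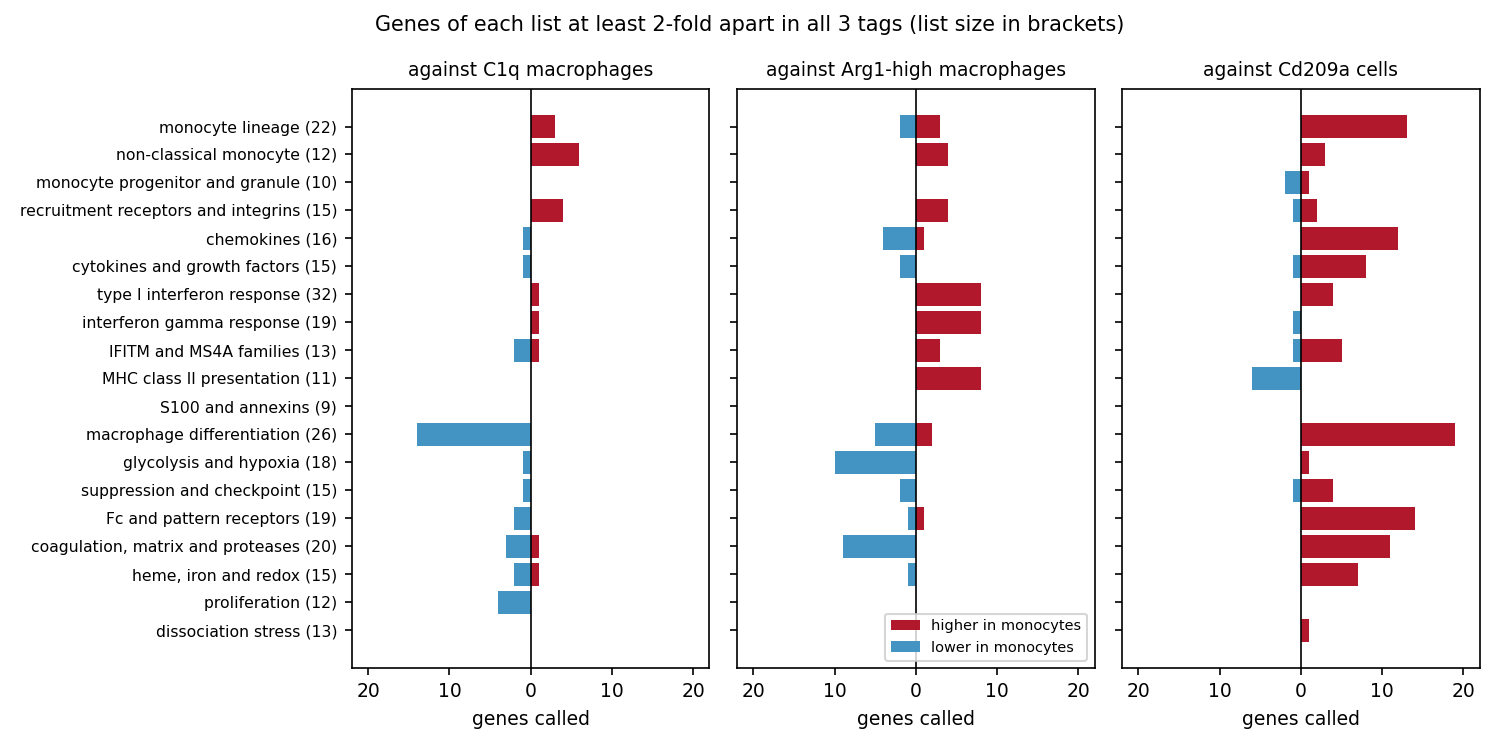
Number of genes of each of 19 lists that were at least 2-fold higher (red, to the right) or lower (blue, to the left) in monocytes in all 3 tags, in the comparisons with C1q macrophages, Arg1-high macrophages and Cd209a cells. Macrophage differentiation has 14 genes to the left in the first panel and 19 to the right in the third, and MHC class II has 8 to the right in the second and 6 to the left in the third.

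Heat shock, chemokine and class II genes were among the 15 genes that varied most between cells of the class. The Fano factor, the variance of a count over its mean, was taken for 1450 genes in cells thinned to 1000 molecules, and its median was 1.11. Hspa1a and Hspa1b, inducible heat shock proteins, led with 12.9 (4.72 to 22 over the tags) and 11.4 (4.78 to 28.8), from 11.4% and 5.25% of thinned cells. Cxcl2 had 8.76 (8.19 to 9.12) and Cxcl1 7.90 (6.47 to 8.22), and a Cxcl1 molecule was found in 51.9% of thinned cells. H2-Ab1 had 5.78 (5.07 to 6.43) and Cd74 5.69 (5.61 to 5.71), with no H2-Ab1 molecule in 39.4% of cells and up to 27 in others. Genes found in nearly every thinned cell were also among the 15, with mt-Co1, a mitochondrial respiratory subunit, at 6.16, Fth1, the ferritin heavy chain, at 5.43 and Lyz2, which took part in the selection, at 5.34. Il1b had 5.41, Hmox1 5.29, Cxcl10 4.81 and Spp1 4.73. The heat shock factors ranged widely between tags, while those of Cxcl2 and Cd74 did not. At 2000 molecules per cell, 14 of the 15 leading genes stayed among the first 15.

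**Figure D4:**
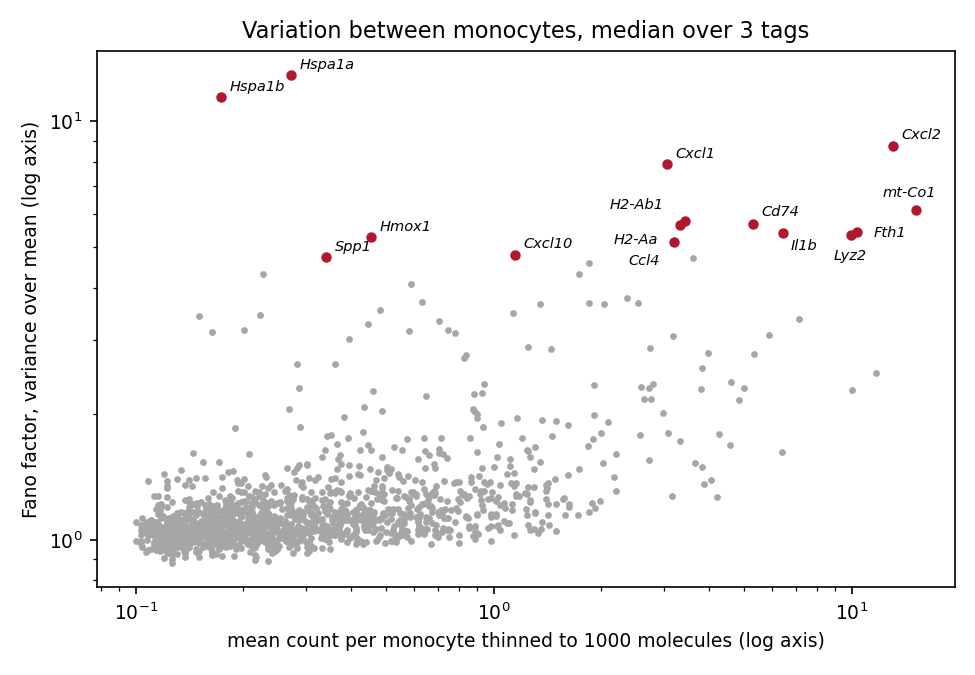
Fano factor (variance over mean, log axis) against the mean count (log axis) of 1450 genes in monocytes thinned to 1000 molecules, as medians over the 3 tags. The 15 leading genes are red, with Hspa1a at 12.9 and Spp1 at 4.73, and the grey genes have a median near 1.11.

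Class II, inflammatory and interferon gene sums had only weak correlations across thinned cells. Between the class II sum and the inflammatory sum, Spearman's rho over thinned cells was -0.08, -0.06 and -0.11 in tags 8, 9 and 10. Between the inflammatory sum and the interferon gamma sum it was -0.10, -0.18 and -0.32. The sum of the 5 type I genes had 0.24, 0.29 and 0.29 with the interferon gamma sum, and 0.15, 0.25 and -0.01 with the class II sum. Between the inflammatory sum and the sum of Plac8, Ccr2, Ms4a4c and Ifitm6 it was -0.14, -0.17 and -0.20. Between that sum and the class II sum it was -0.04, -0.21 and -0.30. The type I sum was 0 in 65.7%, 44.6% and 44.8% of thinned cells, and the interferon gamma sum in 75.1%, 37.5% and 45.8%. Such small, tied counts limit rho, so a closer relation between these sums cannot be told from these values. Cells of a tag share their library and depth, so these weak values are a description only.

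Monocytes led by Ly6c2 alone were set against those led by Chil3 alone. The first had at least 3 Ly6c2 molecules and no Chil3 (56, 94 and 92 cells), and the second the reverse (14, 9 and 8 cells). Of 5718 genes 32 were higher in the Ly6c2-led cells (0.56%) and 101 lower (1.77%), or 2.33% in either direction, with a median gene at -0.17. Of the 101 lower calls 78 had a count of 0 in the Chil3-led cells of some tag, which the value of 3 set for a 0 turned into a higher level, so only 23 lower calls rest on counts in every tag. With TMM scaling 56 were higher and 54 lower, 43 of the latter with such a 0, and the median gene lay at 0.11. An excess of lower genes is therefore not shown. The 23 included Spp1, with 373, 163 and 517 CPM against 1483, 531 and 1582, a ratio of -1.70 (-1.99 to -1.61), and Cd36, a fatty acid and lipoprotein receptor, at -1.59 (-3.13 to -1.39). Cd40, a costimulatory receptor, had 109, 196 and 121 CPM against 20.5, 28.0 and 20.03, a ratio of 2.60 (2.41 to 2.81) from 230 and 4 molecules. Thinned cells gave 2 higher and 37 lower genes, 32 of the latter with such a 0. Cd40 then turned to -1.58, with 4, 31 and 7 molecules against 0, 1 and 0, and 5 other higher genes also changed sign, each with a 0 in the Chil3-led cells of at least 1 tag. Plac8 at 0.79 (0.69 to 2.59), Ccr2 at 0.25 (-0.34 to 0.49) and Ifitm6 at 0.23 (0.15 to 0.46) were not called, and the small second group limits what this contrast can show.

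Type I interferon genes were carried unevenly by the monocytes. The sum of Ifit1, Ifit2, Ifit3, Rsad2 and Isg15, early genes of the type I response, was 0 in 65.7% of thinned cells of tag 8, 44.6% of tag 9 and 44.8% of tag 10. Rsad2, which encodes the antiviral protein viperin, had 310.0, 586 and 509 CPM, and Isg15, a ubiquitin-like modifier, had 405, 672 and 682 CPM. Tag 8 was lowest in both genes. The 71, 89 and 99 cells of each tag with the highest sums, called interferon-high, were set against as many with the lowest, called interferon-low, whose sums were all 0, with ties broken at random. Such a group is a range, not a cell type, and 198, 119 and 126 cells lay within 1 molecule of the lowest interferon-high sum, which was 1, 2 and 2 molecules.

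Of 7232 genes tested 67 were higher in interferon-high cells (0.926%) and 15 lower (0.207%), or 1.13% in either direction, with a median gene at -0.08. The 5 genes that chose the cells were not called. Of the 27 other type I interferon genes 17 were higher and 0 lower, with a median of 1.49. Mx1, an antiviral GTPase, had 61.1, 94.6 and 143 CPM in interferon-high and 8.49, 9.85 and 13.3 in interferon-low cells, a ratio of 3.26 (2.85 to 3.43). Phf11d, a PHD finger gene, had 132, 182 and 245 against 27.6, 34.5 and 42.8 CPM, a ratio of 2.40 (2.26 to 2.52). Irf7, the transcription factor that amplifies the response, had 399, 431 and 560.0 against 112, 166 and 211 CPM, a ratio of 1.41 (1.38 to 1.83). In these 3 genes every interferon-high value lay above every interferon-low value. Cmpk2, a mitochondrial nucleotide kinase, stood at 2.53 (2.38 to 2.68), and Oas3, a sensor of double-stranded RNA, at 1.9 (1.37 to 2.11), calls that ended in thinned cells. Thinned cells gave 8 higher genes of 22.

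Interferon gamma genes followed in part. Of 18 genes 6 were higher, with a median of 1.06, among them Igtp, an immunity-related GTPase, at 1.5 (1.14 to 1.96) and Socs1, an inhibitor of cytokine signals, at 1.5 (1.33 to 1.79). Only 1 of 18 was called without the 40 monocytes that held most molecules. Likewise 1 was called without the 52 monocytes that held at least 3 marker molecules of B, NK, T, erythroid, fibroblast or melanoma cells. Both settings thinned the remaining cells anew and redrew the interferon-high and interferon-low groups, so the part of the removed cells was not tested. Irf1, an early interferon gamma target, stood at -0.11 (-0.30 to 0.67). Of 16 chemokine genes 3 were higher, Ccl12 at 1.72 (1.5 to 1.78), Ccl5 at 1.42 (1.25 to 1.44) and Cxcl9 at 1.27 (1.10 to 1.73), and 1 of them was called without the 40 cells. The 17 higher type I genes numbered 15 without the 40 cells and 17 without the 52. Erythroid markers summed to 36.3 CPM in interferon-high and 714 in interferon-low cells, and fibroblast markers to 154 and 19.3. The median thinned sum was 0 in both groups for both marker sets. Across all monocytes, 1 cell of tag 9 held 1196 of that tag's 1268 erythroid molecules, and 1 cell of tag 8 held 202 of its 241 fibroblast molecules. The lists of monocyte lineage, macrophage differentiation, glycolysis and dissociation stress had 0 calls in either direction. Ly6c2 stood at 0.73 (0.33 to 0.81), Chil3 at -0.41 (-0.91 to -0.30), Ccr2 at -0.05 (-0.53 to 0.02) and Cd74 at 0.52 (0.01 to 0.53).

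**Figure D5:**
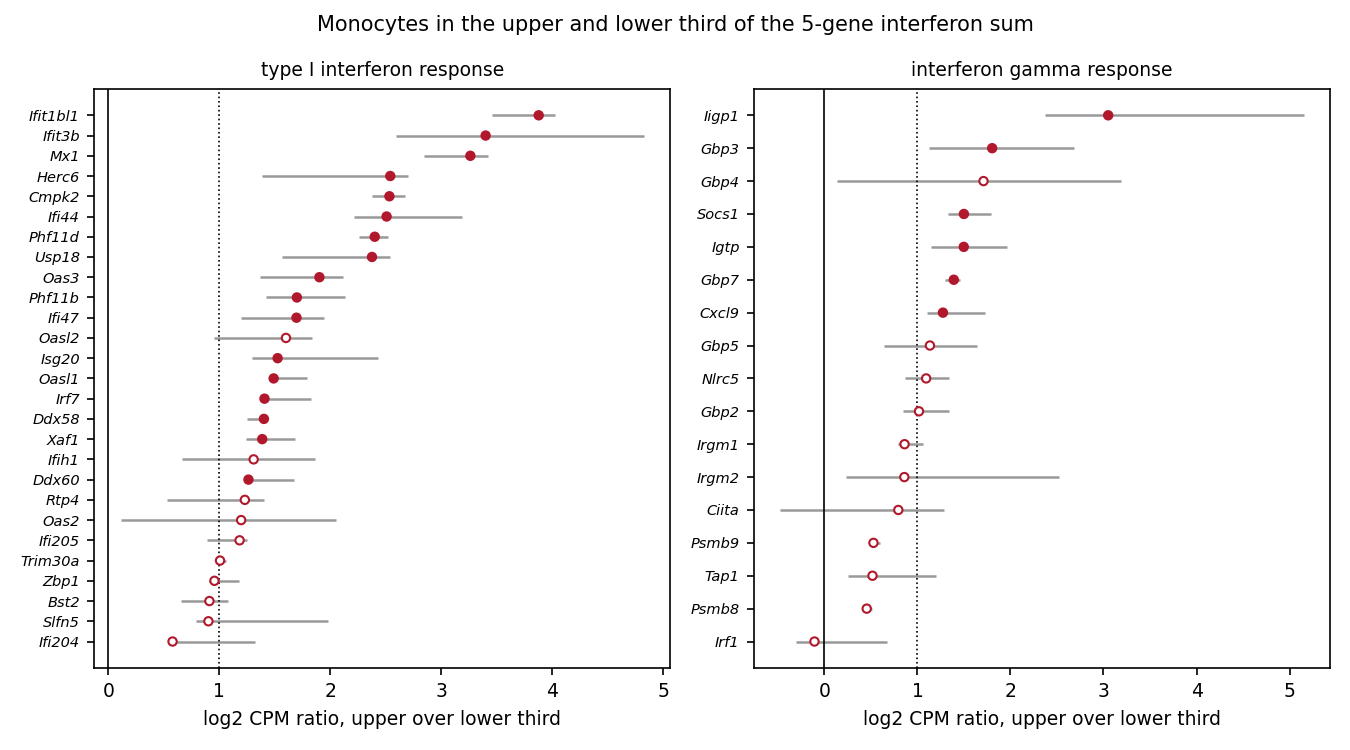
Log2 ratio of CPM between interferon-high and interferon-low monocytes by the 5-gene sum, for the other type I genes and 17 of the 18 interferon gamma genes tested. Points are medians over the 3 tags, bars run from the lowest to the highest tag, filled points are called, the dotted line marks 2-fold, and a count of 0 was set to 3 molecules. Mx1 lies at 3.26 and Irf1 at -0.11.

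Type I interferons act through a transcription factor complex that binds a DNA element with a repeated GAAA. The motif searched was GAAA followed after any 2 bases by a further GAAA, on both strands, with overlapping matches counted apart, in RefSeq promoters on GRCm38.p6 that run from 250 bases before to 50 after the start of a gene. It was found in 20 of the 50 genes higher in interferon-high cells that had a promoter entry (40.0%), in 261 of 5774 genes tested (4.52%) and in 1079 of 27025 genes in the table (3.99%). Among the genes that chose the cells 4 of 5 held it. None of the 6 monocyte marker genes did, which says only that these letters are not in that window. The 160 bases before the start are shown for 2 genes that chose the cells and 2 that did not, 5′ to 3′ on the gene's strand, with the motif in capitals.
Ifit1 (chr19:34640729-34640888, plus strand): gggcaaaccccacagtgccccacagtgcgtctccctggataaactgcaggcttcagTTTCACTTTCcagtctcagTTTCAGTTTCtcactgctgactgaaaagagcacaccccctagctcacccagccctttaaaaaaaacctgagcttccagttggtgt
Isg15 (chr4:156200819-156200978, minus strand): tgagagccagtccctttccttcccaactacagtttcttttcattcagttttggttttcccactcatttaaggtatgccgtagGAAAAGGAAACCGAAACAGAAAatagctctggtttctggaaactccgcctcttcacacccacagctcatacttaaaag
Oas3 (chr5:120777660-120777819, minus strand): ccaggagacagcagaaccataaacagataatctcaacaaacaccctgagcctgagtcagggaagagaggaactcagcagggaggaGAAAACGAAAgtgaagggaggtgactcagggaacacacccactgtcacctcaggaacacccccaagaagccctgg
Phf11b (chr14:59341331-59341490, minus strand): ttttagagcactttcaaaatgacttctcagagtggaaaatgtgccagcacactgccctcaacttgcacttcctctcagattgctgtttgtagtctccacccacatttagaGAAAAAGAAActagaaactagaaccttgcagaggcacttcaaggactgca
In Ifit1 the 2 matches begin 104 and 85 bases before the start, on the reverse strand, and in Isg15 the 3 matches overlap and begin 78 to 66 bases before it. Oas3 has 1 match 75 bases and Phf11b 1 match 50 bases before the start. Phf11b, a relative of Phf11d, had 251, 361 and 475 CPM in interferon-high cells against 93.4, 82.1 and 146, a ratio of 1.70 (1.42 to 2.14). A match is a string of letters and was not tied to binding in these cells.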

How the data were processed

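CD45-sorted tumour cells were profiled with a whole transcriptome library and a sample tag library. Per the file headers, the authors ran version 1.9.1 of BD's Rhapsody pipeline on GRCm38 with the vM19 annotation of GENCODE, and the deposited values are counts of molecules for every cell and gene. GRCm39 appears in the submitters' processing notes, but the header was followed. The deposited tag calls give each cell tag 8, 9 or 10, a multiplet or an undetermined call.

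The filters kept 10491 cells with 1 tag, 200 genes or more and 25% mitochondrial molecules or less. No doublet caller was run, and multiplet calls were left out. The monocytes, the 19 gene lists and the comparisons were chosen with earlier results of these data known. Counts were summed by class and tag and scaled to CPM. A gene was compared if both classes together held 30 molecules or more, with 3 in place of a count of 0. Intervals are exact at 95% and cover counting error only. With 1 tag for an unnamed genotype no test was run.

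Named genes were members of the lists, markers and selection genes. Outside them, they were the 15 genes with most molecules, the 10 highest and 10 lowest called ratios in each comparison among genes with at least 100 CPM in 1 class in every tag, the 15 largest Fano factors and the 10 widest ranges between tags. Mx2 and Clec7a were not analysed here, and some named genes are not reported here. Alternatives changed the scaling (TMM from edgeR 4.0.16 in R 4.3.3), thinning, minimum counts, filters, selection limits and tags. Promoters are from RefSeq (GRCm38.p6), and gene coordinates and transcripts from GENCODE vM21 on GRCm38. The other tools were Python 3.11.15 with biopython 1.88, pandas 2.3.3, scipy 1.17.1, numpy 2.4.6 and matplotlib 3.10.9.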

Additional observations from a re-analysis of the deposited data

Results flagged for a closer look

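Cells outside the comparisons also met the monocyte limits. Among the 1271 cells that passed the filters but were labelled as multiplets by their tags, 80 did so (6.29%, exact 95% interval 5.02 to 7.77), with a median of 7250 molecules against 6229 in the 782 monocytes. Among the 175 cells of undetermined tag, 1 did so (0.571%, 0.014 to 3.14). The share among single-tag kept cells was 7.45% (6.96 to 7.97), so neither share lay above it. The multiplet and undetermined cells belong to no tag and entered no comparison.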

How the results depend on the processing

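The monocyte share of kept cells in tag 9 (7.72%) became 8.71% with a mitochondrial limit of 10%, 6.08% and 9.41% with at least 6 or 1 molecules of Ly6c2 and Chil3, 6.17% with C1q and Arg1 under 3, and 8.69% with Lyz2 of at least 5. The median share without 1 tag ranged from 7.07% to 7.93%. Thinned cells gave 48 higher and 114 lower genes against C1q macrophages, 90 and 79 against Arg1-high macrophages, 221 and 156 against Cd209a cells, and 34 and 7 between interferon-high and interferon-low cells. Thinning leaves fewer genes with enough molecules. Of the called list and named genes that kept enough in these 4 contrasts, 9 of 43, 18 of 68, 23 of 115 and 7 of 22 also lost their call. Between Ly6c2-led and Chil3-led cells thinning gave 2 and 37, and the higher calls of AW112010 (-1.0), Areg (-0.94), Cd40 (-1.58), Gbp7 (-1.02), Ifi47 (-0.063) and Phf11b (-0.26) changed sign, each against a count of 0 set to 3 in at least 1 tag. In a setting added after the data were seen, which made no call on a count of 0 in the group called larger, 23 lower calls were left of 101. That contrast also gave 56 and 54 with TMM, 176 lower with the mean of the cells' CPM, 1172 lower at a minimum of 10 molecules (1132 with such a 0), 4 lower at 100, 17 and 159 with a mitochondrial limit of 10%, and, in a further added setting, 18 and 163 without the 40 monocytes with most molecules. A minimum of 10 molecules gave 193 higher against C1q macrophages and 268 lower against Arg1-high macrophages, and a minimum of 100 gave 265 lower against Cd209a cells. The interferon groups had 8 lower with TMM, 28 with the mean of cells, 33 at a minimum of 10, 24 with a mitochondrial limit of 10%, and 44 higher and 0 lower at 100. That mitochondrial limit also redrew the interferon groups from the cells left. Leaving out each tag gave 111 to 134 higher and 400 to 501 lower against C1q macrophages, 223 to 390 and 175 to 293 against Arg1-high macrophages, 510 to 538 and 521 to 585 against Cd209a cells, 75 to 112 and 58 to 248 for Ly6c2-led cells, and 73 to 103 and 47 to 60 for the interferon groups, with fewer tags that must agree. The highest counts against Arg1-high macrophages came without tag 8. Other causes were not tested. Among 55, 83, 135 and 29 called list and named genes of the other 4 contrasts no value changed sign in any setting run. Leaving out a tag, changing the minimum count or making no call on a 0 could not change the sign of a called gene. Genes short of the minimum count in a setting were not examined there, and thinning left 43, 68, 115 and 22. Ratios were taken within each tag, so the classes compared share their tags. The 31 Chil3-led cells limit that contrast.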
